A study of Zea mays with 16 samples.

Results

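The 60 transcripts described here had lower signal in anthers of Mu killer plants than in those of Mu active plants on every array of the series, and the drop was largest among probes that qualified. They were chosen from the scanner output. Of 42034 maize probes, 28295 were well above background in both colors of all 8 arrays, 385 of these (1.36%) had a negative ratio (Mu killer over Mu active, log2) on each array, and the 60 with the most negative mean ratio were taken. In the other direction 492 probes (1.74%) had a positive ratio on each array. The ratio between the lines therefore selected the members, and their ratios, signs and group overlaps are given as a description with no test. The limit of 60 fell in a continuous series of values. The last 3 members, CO521251, AI691305 and TC304185, had mean log2 ratios of -0.93, -0.93 and -0.92, and the next 3 probes, TC297063, TC290246 and CD940230, had -0.92, -0.92 and -0.92.

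Maize Mutator is a family of transposable elements that moves through the transposase made by the autonomous element MuDR. MuDR carries the transposase gene mudrA and a second gene, mudrB. Mu killer is a locus derived from a partial, inverted duplication of MuDR that silences active elements. How its transcripts bring this about is debated. Anthers at 1 mm are premeiotic and still dividing by mitosis, and anthers at 2 mm hold pollen mother cells in meiosis.

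The series compared Mu killer and Mu active siblings at both anther lengths, with 4 replicates per line and stage, so that the 16 samples fall into the groups Mu killer 1.0 mm, Mu active 1.0 mm, Mu killer 2.0 mm and Mu active 2.0 mm. The methods state that all plants were untreated, field-grown siblings from ears that segregate for Mu killer in a high-copy MuDR background with a mutable reporter of kernel color, that bronze kernels gave the Mu killer plants and spotted kernels the Mu active plants, and that the genotype was checked by PCR on DNA. Each RNA came from a pool of dissected anthers, and the plants carry segregating backgrounds, so that differences linked to the Mu killer chromosome or to single plants cannot be told apart from silencing. Every array carried both lines, Mu killer in green (Cy3) and Mu active in red (Cy5) on arrays 1 and 2 of a stage and with dyes exchanged on arrays 3 and 4. The sample labels give the same line to both colors of an array. The lines were taken from the Cy3 labels, and the opposite reading would turn the sign of every ratio and keep its size. In that reading these transcripts would be lower in Mu active. The design text of the series speaks of inactive rather than Mu killer plants, and the scans are dated earlier than the growing season that the methods give. Neither was resolved, and that the arrays compare Mu killer with Mu active rests on the sample labels.

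Each stage occupied a slide of its own with 4 arrays, so stage and slide cannot be told apart, whereas the ratio between the lines was measured within each spot. The arrays did not repeat each other closely. Over the 28295 probes the correlation of the log2 ratios of 2 arrays ran between -0.24 and 0.63 across the 28 pairs, and 1 mm array 1 correlated between -0.24 and 0.10 with the other 7. The ratios were most widely spread on 2 mm array 4, with a SD over these probes of 1.13, against 0.638 on 1 mm array 2 where they were tightest. In whole anthers, fewer cells of a type and less RNA per cell cannot be told apart. The tissue was taken from the labels, since no text column pairs a probe with an anther marker of the list used.

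No member can be described by gene name. The array design marks all of them as of unknown function, and 0 of the 60 identifiers matched the B73 reference gene table, in which 1 of the 39174 identifiers on the array was found. Identifiers that start with TC are tentative consensus sequences, assembled from expressed sequence tags (ESTs), and made up 35 members (58.3%), against 73.9% of the 28295 probes. Identifiers in the form of EST accessions made up 24 (40.0%), against 25.4%. The remaining member, MAGI4_59956, carries the name of an assembled genomic sequence (1.67%, against 0.573%). The 60 probes represent 60 different identifiers, none of them a MuDR sequence.

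The reduction in Mu killer was deep for 1 transcript and moderate for most. The mean log2 ratio over the 8 arrays ranged from -5.55 for TC313692 to -0.92 for TC304185, with a median of -1.10, and was below -1 in 49 members but below -2 in only 3. Replicate arrays of a single member were far apart. The SD over the 8 arrays had a median of 0.675, from 0.226 in TC314797 to 1.63 in TC314868. Although every array was negative by the rule, 17 members had an array above -0.1 and 33 had one above -0.25. Only 5 members stayed below -0.5 on every array, and TC313692 and TC300764 alone stayed below -1.

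**Figure D1:**
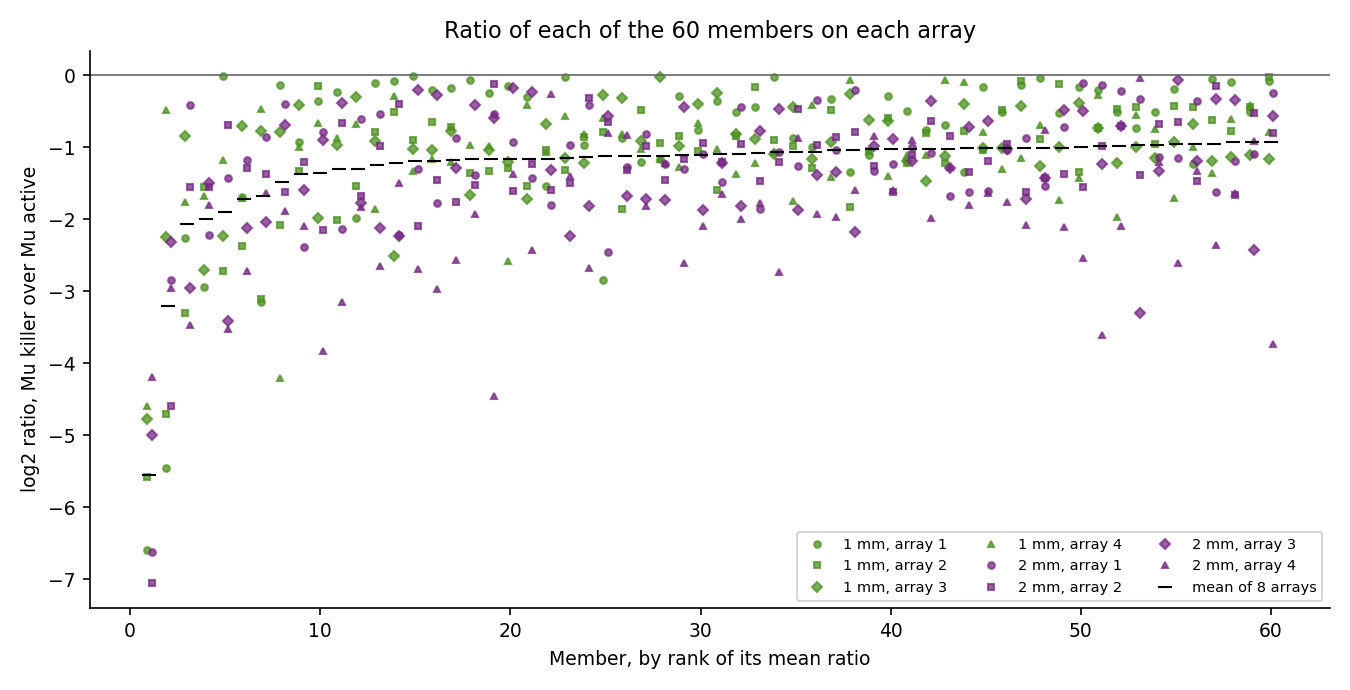
Log2 ratio between the lines, with Mu killer over Mu active (vertical axis), for the 60 members in order of their mean (horizontal axis), with 1 point per array, green for 1 mm and purple for 2 mm, and a black dash for the mean of the 8 arrays. On this scanner scale TC313692 (mean -5.55) and TC314868 (mean -3.20) stand below the rest, and the most negative array of 33 members is 2 mm array 4.

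TC313692 was bright in Mu active and dim in Mu killer. Its processed signal, which is the intensity of the spot as the scanner software corrects it for background and dye, was 175, 242, 617 and 840.0 on arrays 1 to 4 in Mu killer at 1 mm, against 16950, 11570, 16880 and 20270 in Mu active. At 2 mm it was 136, 132, 735 and 855 in Mu killer, against 13360, 17360, 23390 and 15600 in Mu active. The lines were more than a factor of 10 apart at both stages. The Mu killer values were higher on arrays 3 and 4, where Mu killer was labeled red, at both stages. The log2 ratio averaged -5.39 ± 0.91 at 1 mm and -5.71 ± 1.35 at 2 mm (SD, n = 4 arrays each), and over all arrays the signal was 46.8-fold lower in Mu killer.

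TC314868 came next and was far less even. Its signal was 59.7, 26.6, 94.6 and 88.3 in Mu killer at 1 mm, against 2619, 691, 449 and 123 in Mu active. In 2 mm anthers the signal was 123, 27.9, 67.0 and 24.8 in Mu killer, against 880, 669, 334 and 192 in Mu active. The groups did not overlap at either stage, but Mu active itself varied widely at 1 mm, with the highest signal on array 1 and the lowest on array 4. The mean ratio was -3.22 ± 2.29 at 1 mm and -3.18 ± 0.98 at 2 mm (SD, n = 4 each). Its ratio was strongest on array 1 of the 1 mm stage (-5.45) and weakest on array 4 of that stage (-0.47). After normexp with an offset of 50 and loess, the fitted ratios were much smaller, at -1.82 at 1 mm and -1.09 at 2 mm, and TC314868 then came behind TC280434 (-1.96 and -2.08), TC300764 (-1.97 and -1.48), TC291883 (-1.79 and -1.41) and TC306750 (-1.45 and -1.51). TC313692 stayed the most reduced, at -4.85 and -4.47.

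TC300764 was the steadiest of the strongly reduced transcripts. Its signal was 386, 1502, 681 and 1638 in Mu killer at 1 mm, against 2956, 4384, 4436 and 5240 in Mu active. The 2 mm samples gave 794, 697, 788 and 833 in Mu killer, against 3686, 2033, 2212 and 2888 in Mu active. The groups were separate at both stages, and the 4 Mu killer samples at 2 mm lay close together. The mean ratio was -2.22 ± 0.71 at 1 mm and -1.76 ± 0.33 at 2 mm (SD, n = 4 each), 3.97-fold lower in Mu killer over all arrays.

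TC280434, TC306750 and TC291883 were bright in both lines. For TC280434 the signal was 4207, 1615, 7500 and 5132 in Mu killer at 1 mm, against 20030, 15870, 13390 and 17310 in Mu active. At 2 mm it was 13970, 4665, 2609 and 2308 in Mu killer, against 18550, 13720, 20200 and 25400 in Mu active. The lines were separate at 1 mm and overlapped at 2 mm, where the Mu killer sample of array 1 lay just above the lowest Mu active sample. The mean ratio was -2.04 ± 1.03 at 1 mm and -2.10 ± 1.38 at 2 mm (SD, n = 4 each). The spread lay mostly in Mu killer, in which the SD of the log2 signal was 0.943 at 1 mm and 1.19 at 2 mm, against 0.243 and 0.368 in Mu active.

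TC306750 had a signal of 1500.0, 996, 2779 and 2109 in Mu killer at 1 mm, against 4836, 5156, 4529 and 6843 in Mu active. At 2 mm it had 1878, 1099, 1161 and 769 in Mu killer, against 4250, 2681, 5034 and 5045 in Mu active. Both stages kept the lines apart, with mean ratios of -1.62 ± 0.69 at 1 mm and -1.82 ± 0.73 at 2 mm (SD, n = 4 each).

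TC291883 also kept the lines apart at both stages. Its signal was 1195, 987, 3853 and 3649 in Mu killer at 1 mm, against 10550, 8494, 6600 and 5048 in Mu active. In 2 mm anthers the signal was 4209, 2201, 1425 and 1550.0 in Mu killer, against 7583, 5696, 5862 and 4793 in Mu active. The mean ratio was -1.87 ± 1.45 at 1 mm and -1.47 ± 0.50 at 2 mm (SD, n = 4 each). The ratio was strongest on arrays 1 and 2 at 1 mm (-3.14 and -3.11) and weaker on arrays 3 and 4 (-0.78 and -0.47).

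T18258 was dim in Mu killer at both lengths. Its signal was 42.4, 13.9, 30.0 and 27.9 in Mu killer at 1 mm, against 42.6, 91.4, 141 and 63.1 in Mu active. The 2 mm samples gave 51.2, 73.5, 110.0 and 85.3 in Mu killer, against 137, 118, 1167 and 976 in Mu active. The groups did not overlap, although array 1 at 1 mm had nearly equal signals in both lines with a ratio of -0.01. The high Mu active samples at 2 mm were those of arrays 3 and 4, whereas the samples of arrays 1 and 2 lay just above Mu killer. The mean ratio was -1.53 ± 1.20 at 1 mm and -2.26 ± 1.42 at 2 mm (SD, n = 4 each).

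**Figure D2:**
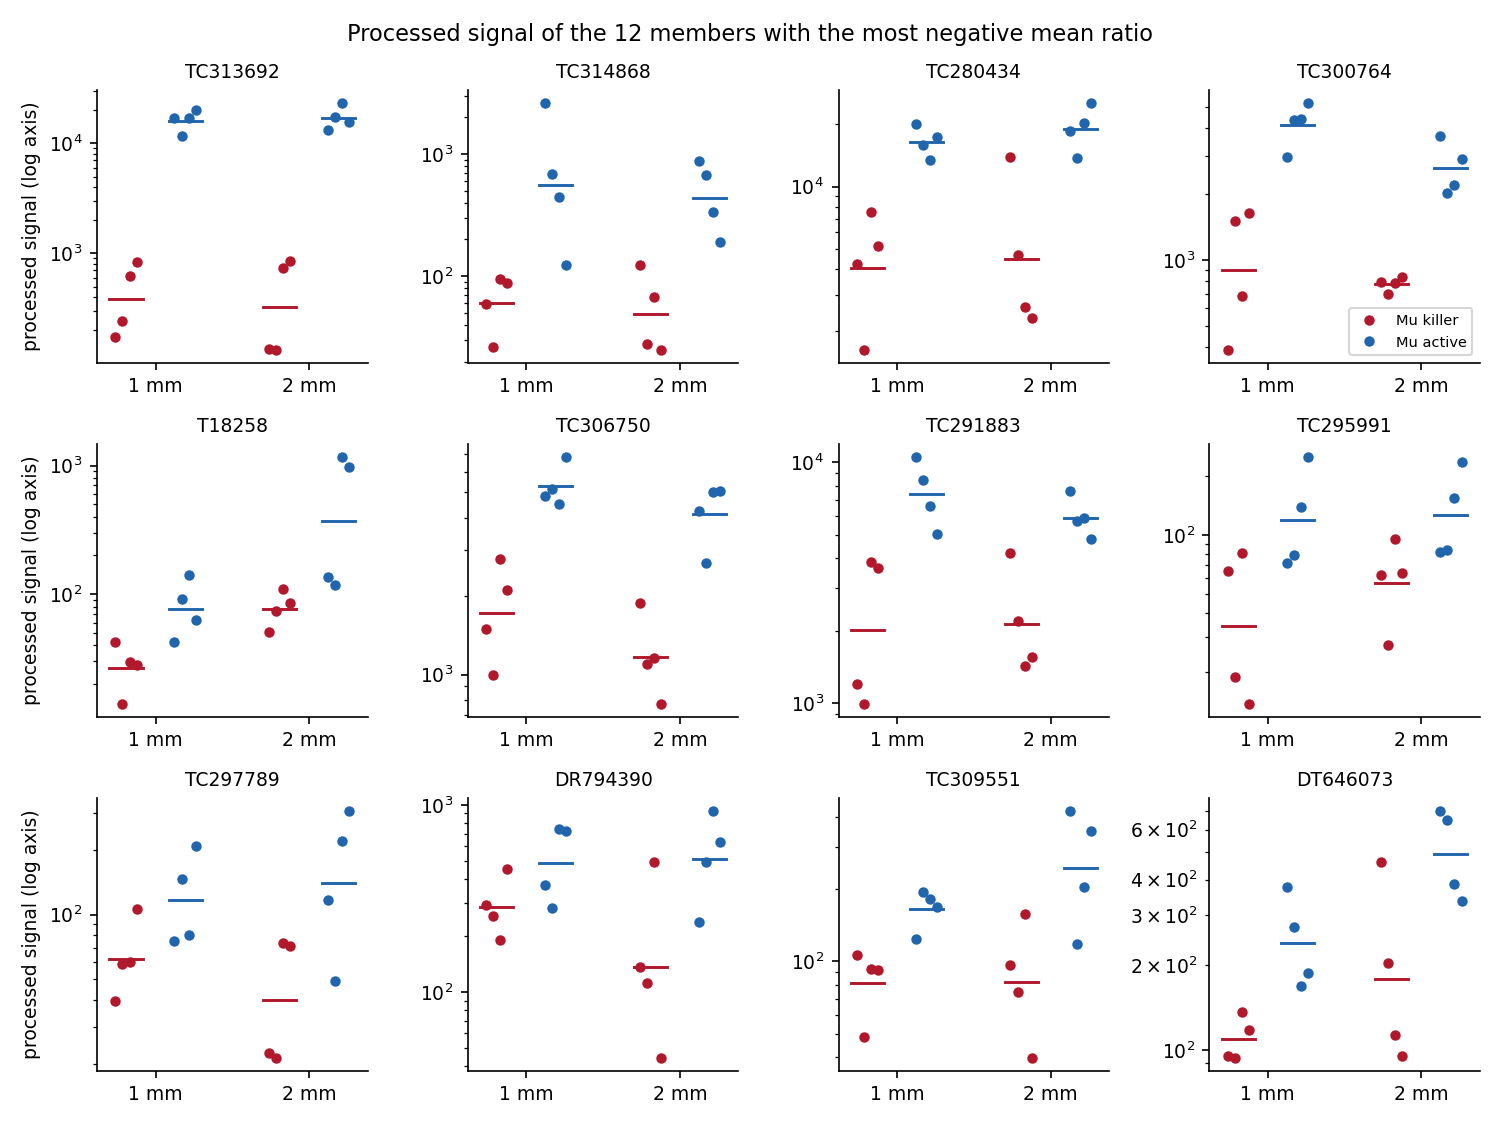
Processed signal (log axis) of the 12 members with the most negative mean ratio, with 4 Mu killer samples (red) left of 4 Mu active samples (blue) at each stage and a line at their geometric mean. The scales differ between panels, and levels are not compared between probes. The Mu killer and Mu active points of TC313692 are far apart, while those of TC295991, TC297789 and DR794390 overlap at both stages.

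The other 5 of these 12 were dim to moderate in signal, and all of them had groups that overlapped at a stage. TC295991 had 65.8, 18.9, 80.7 and 13.7 in Mu killer at 1 mm, against 72.3, 79.4, 139 and 250.4 in Mu active. In 2 mm anthers it had 62.4, 27.3, 95.2 and 64.2 in Mu killer, against 82.2, 84.0, 154 and 236 in Mu active. The lines overlapped at both stages, and the mean ratio was -1.80 ± 1.79 at 1 mm and -1.15 ± 0.71 at 2 mm (SD, n = 4 each), with array 4 alone at -4.20 at 1 mm.

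TC297789 had 39.5, 58.7, 60.4 and 106 in Mu killer at 1 mm, against 74.97, 148, 80.1 and 210.2 in Mu active. The 2 mm samples gave 22.5, 21.3, 73.5 and 71.7 in Mu killer, against 117, 49.0, 222 and 306 in Mu active. Its groups overlapped at both stages, yet its ratios were comparatively even within a stage, at -0.91 ± 0.38 at 1 mm and -1.82 ± 0.52 at 2 mm (SD, n = 4 each). In this transcript the signal of both lines moved together from array to array, with arrays 3 and 4 of the 2 mm stage above arrays 1 and 2 in both.

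DR794390 had 292, 255, 189 and 457 in Mu killer at 1 mm, against 371, 282, 744 and 724 in Mu active. Later, at 2 mm, the signal was 136, 112, 497 and 44.2 in Mu killer, against 235, 494, 928 and 631 in Mu active. The groups overlapped at both stages. Its mean ratio was -0.78 ± 0.82 at 1 mm and -1.92 ± 1.42 at 2 mm (SD, n = 4 each), and the sample of 2 mm array 4 was the lowest of all 8 from Mu killer.

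TC309551 had 106, 48.3, 92.9 and 91.8 in Mu killer at 1 mm, against 124, 195, 182 and 168 in Mu active. In meiotic anthers the values were 96.6, 74.3, 157 and 39.5 in Mu killer, against 423, 118, 204 and 349 in Mu active. The lines were apart at 1 mm and overlapped at 2 mm, with mean ratios of -1.02 ± 0.74 at 1 mm and -1.58 ± 1.30 at 2 mm (SD, n = 4 each).

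DT646073 had 95.2, 93.8, 137 and 118 in Mu killer at 1 mm, against 376, 272, 169 and 187 in Mu active. At 2 mm it had 460.4, 203, 113 and 95.4 in Mu killer, against 699, 650, 386 and 337 in Mu active. It too was separate at 1 mm and overlapped at 2 mm, where the Mu killer sample of array 1 exceeded the Mu active samples of arrays 3 and 4. The mean ratio was -1.12 ± 0.77 at 1 mm and -1.47 ± 0.58 at 2 mm (SD, n = 4 each).

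Across all 60 members, the signals of Mu killer and Mu active did not overlap for 28 at 1 mm, where 0.915% of the 28295 probes showed such a separation with Mu killer lower, and for 23 at 2 mm, where 1.58% did. Both stages were separate for 15 members and neither for 24, and the matching shares of the 28295 probes were not computed. These counts follow from the choice of members. At 1 mm the SD of the log2 signal within a line had a median over the members of 0.417 for Mu killer and 0.448 for Mu active, against 0.466 and 0.45 over the 28295 probes. At 2 mm the members had 0.664 for Mu killer and 0.69 for Mu active, against 0.489 and 0.524.

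Many members were dim spots. The signal averaged over the 16 samples had a median of 348 across members and 492 across the 28295 probes, and 30 members were under 300 (39.8% of the probes were). The size of the ratios depended on the processing, more so for the dimmer members. With normexp correction at an offset of 50 and loess, which was used for the tests below, the 60 members kept a negative mean and 54 were negative on every array, but their median mean ratio was -0.59, not -1.10. The 30 members under 300 moved from a median of -1.11 in the scanner output to -0.35, and the 30 brighter ones moved from -1.08 to -0.83.

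The deposited ratios ran lower at 2 mm than at 1 mm. The median member had a ratio of -0.85 at 1 mm and -1.33 at 2 mm, against medians of 0.02 and -0.01 over the 28295 probes, and 52 of the 60 were more negative at 2 mm. Among all 385 probes that were negative on every array, 322 (83.6%) were more negative at 2 mm, against 50.6% of the 28295 probes. The 385 were chosen by the sign of these same ratios, so the shares are not a like comparison. The SD of the ratios over the 28295 probes was 0.638 to 0.924 on the 1 mm arrays and 0.771 to 1.13 on the 2 mm arrays. The member ratios also differed between single arrays, and why they were lower at 2 mm was not tested. The median member ratio was -0.49, -0.92, -0.99 and -1.04 on arrays 1 to 4 at 1 mm and -1.11, -1.21, -1.26 and -1.93 at 2 mm. Array 4 at 2 mm held the most negative ratio of 33 members, and array 1 at 1 mm the least negative of 21. Without 2 mm array 4 the 2 mm median was -1.19, and 45 members were more negative at 2 mm.

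**Figure D3:**
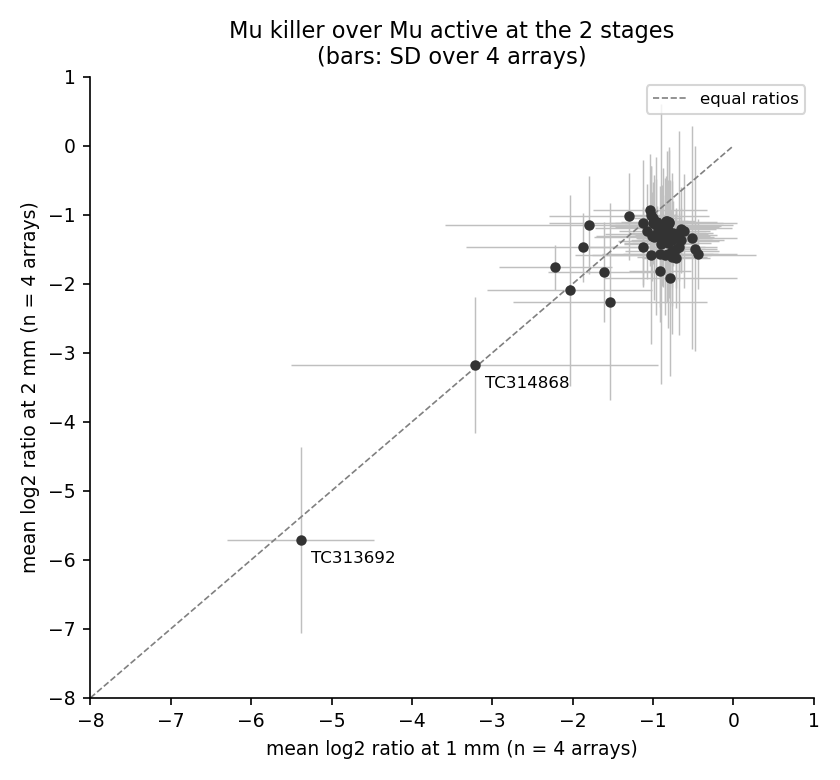
Mean log2 ratio, taken as Mu killer over Mu active, at 1 mm (horizontal axis) and at 2 mm (vertical axis) for the 60 members, with bars for the SD over 4 arrays and a dashed line where both are equal. Of the 60 members, 52 lie below the line.

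The difference between the stages was tested in limma on the loess ratios of all 42034 probes, with a dye term. No member passed at an adjusted p of 0.05, and none of the 42034 probes did (0% called). At an unadjusted p under 0.05 there were 0 members and 845 probes, of which 757 were among the 28295 (2.68%). On this scale the members were split between the stages. The difference of 2 mm minus 1 mm had a median of -0.03 over the members, from -0.51 to 0.73, and was below 0 in 32 of 60 (53.3%), against 48% of the 28295 probes. The rule, which needs negative ratios at both stages, limits how far the stages of a member can part.

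The member with the largest moderated difference was CO461238. It had 37.5, 78.9, 211 and 39.2 in Mu killer at 1 mm, against 84.1, 151, 214 and 87.2 in Mu active. In 2 mm anthers it had 143, 148, 83.2 and 134 in Mu killer, against 337, 404, 277 and 310 in Mu active. The groups overlapped at 1 mm and were apart at 2 mm. The difference of 2 mm minus 1 mm in its loess log2 ratio was -0.33 (SE 0.14), with an unadjusted p of 0.0533 and an adjusted p of 1 in limma. Its scanner ratio averaged -0.82 at 1 mm and -1.41 at 2 mm.

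TC308418, TC313692 and AW017929 followed, none near the threshold. TC308418 had 547, 347, 238 and 458 in Mu killer at 1 mm, against 767, 804, 543 and 982 in Mu active. The 2 mm samples gave 180.3, 71.2, 163 and 147 in Mu killer, against 358, 153, 373 and 274 in Mu active. Its groups overlapped at both stages through the spread between arrays, while the scanner ratio was among the steadiest, with a SD of 0.242 over the 8 arrays. That ratio averaged -0.997 at 1 mm and -1.045 at 2 mm. On the loess scale of the test the difference was 0.30 (SE 0.17, unadjusted p = 0.123 and adjusted p = 1 in limma), in the other direction. For TC313692 the loess difference was 0.38 (SE 0.22, unadjusted p = 0.124 and adjusted p = 1 in limma). Its scanner means of -5.39 at 1 mm and -5.71 at 2 mm ran the other way.

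AW017929 had 2088, 1181, 1689 and 2298 in Mu killer at 1 mm, against 2398, 1964, 2788 and 2783 in Mu active. Later, at 2 mm, the signal was 1199, 1020.0, 898 and 70.7 in Mu killer, against 1318, 2013, 2100.0 and 864 in Mu active. The groups overlapped at both stages. Mu killer at 2 mm was set apart by the sample of array 4, whose ratio was -3.61. On the loess scale the difference between stages was -0.51 (SE 0.32, unadjusted p = 0.149 and adjusted p = 1 in limma). The scanner ratio averaged -0.48 at 1 mm and -1.49 at 2 mm.

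The rule did not use the change of level between stages. It did use the same signals, through the filter on background and the ratios, so the comparison is not independent of the choice of members. Levels after normexp with an offset of 50 were compared between stages in a separate-channel fit of limma over 41979 probes. Lower values at 2 mm outnumbered higher ones. The log2 level at 2 mm minus 1 mm was below 0 for 44 of 60 members in Mu killer, where 50.7% of the probes that were well above background throughout were, and likewise for 44 of 60 in Mu active, where 49.3% were. The median member changed by -0.20 (Mu killer) and -0.21 (Mu active), against medians of -0.01 and 0.01 over those probes. Both lines were read on the same spots, and the stages on different slides, so the lines are not independent of each other here. Few members passed on their own. In Mu killer 3 of 60 (5%) were called, all lower at 2 mm, whereas 14.6% of the probes well above background were called, 6.97% lower. In Mu active 8 of 60 (13.3%) were called, all lower, against 9.39%, 5.56% lower. Whether these shares differ from those of the other probes was not tested. These counts varied with single arrays and with the scale, as did the calls over all probes. With 1 array left out they ran between 0 (without 1 mm array 1) and 7 (without 2 mm array 3) in Mu killer. The same fits called 1812 and 6518 of all probes, against 4443 in the main fit. In Mu active they ran between 1 (without 1 mm array 2) and 12 (without 2 mm array 4). There 1327 and 3148 of all probes were called, against 2872 in the main fit. With the processed signals 13 members were called in Mu killer and 2 in Mu active, beside 4172 and 1621 of all probes.

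**Figure D4:**
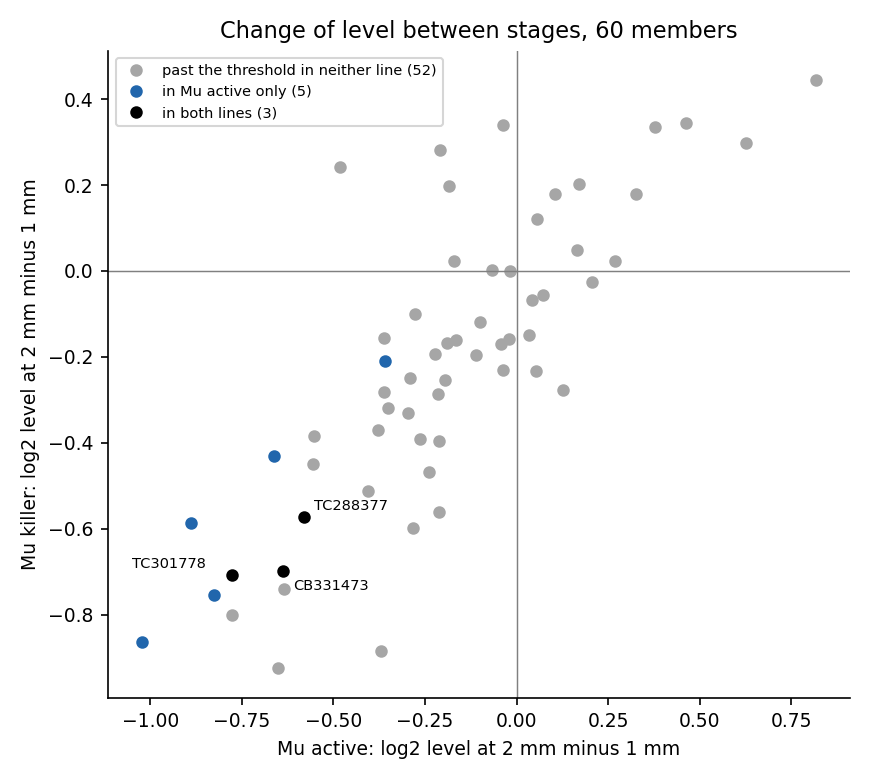
Change of the log2 level at 2 mm minus 1 mm in Mu killer (vertical axis) and in Mu active (horizontal axis) for the 60 members, colored by whether the adjusted p of limma was under 0.05. The 3 members past it in both lines and the 5 past it in Mu active only all lie below 0 on both axes.

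CB331473, TC288377 and TC301778 fell in both lines. Their fitted changes are on the scale of the test, after normexp with an offset of 50, and not on that of the listed signals. On a log scale the listed signals of each fell further in Mu killer than in Mu active. CB331473 had 504, 439, 550 and 369 in Mu killer at 1 mm, against 615, 661, 852 and 970.2 in Mu active. In meiotic anthers the values were 199.9, 196, 368 and 159 in Mu killer, against 469, 598, 678 and 481 in Mu active. The Mu killer values at 2 mm lay below all those at 1 mm, barely so on array 3, and Mu killer was below Mu active at both stages. The fitted log2 level fell by 0.70 in Mu killer (SE 0.15, adjusted p = 0.0112 in limma) and by 0.64 in Mu active (SE 0.15, adjusted p = 0.0211 in limma).

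TC288377 had 234, 262, 148 and 179.5 in Mu killer at 1 mm, against 316, 294, 273 and 417 in Mu active. At 2 mm it had 59.2, 46.8, 126 and 66.2 in Mu killer, against 214, 129, 215 and 225 in Mu active. The lines were separate at both stages, and the stages were separate in both lines. The fitted log2 level fell by 0.57 in Mu killer (SE 0.13, adjusted p = 0.0183 in limma) and by 0.58 in Mu active (SE 0.13, adjusted p = 0.0206 in limma). The near-equal falls hold on that scale only, since the listed signals fell further in Mu killer.

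TC301778 had 513, 501, 550 and 509 in Mu killer at 1 mm, against 735, 547, 1098 and 1684 in Mu active. In 2 mm anthers it had 211, 199.6, 387 and 211 in Mu killer, against 346, 514, 537 and 903 in Mu active. Mu killer at 1 mm was uniform, and at 2 mm its array 3 sample stood above the other 3. The lines overlapped at both stages. The fitted log2 change was -0.71 in Mu killer (SE 0.20, adjusted p = 0.0413 in limma) and -0.78 in Mu active (SE 0.20, adjusted p = 0.0362 in limma).

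Another 5 members passed in Mu active only. These were TC308418, DR785535, TC313380, TC308630 and BE511829, with log2 changes in Mu active between -1.02 for TC313380 and -0.36 for BE511829. In Mu killer the same 5 had changes between -0.86 for TC313380 and -0.21 for BE511829, with adjusted p values from 0.0503 for TC308630 to 0.197 for BE511829 in limma. The stage difference in the ratio, which tests whether the change between stages differs between the lines, passed for none of them. Of the 12 members with the most negative scanner ratios none passed the level test in either line. T18258 came closest, with a change of 0.82 in Mu active (SE 0.29, adjusted p = 0.112 in limma) and of 0.44 in Mu killer (SE 0.29, adjusted p = 0.354 in limma).

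Because each array pair exchanged the dyes, the members could be examined for a dependence on color. With Mu killer in red, 45 of 60 members had a more negative ratio than with Mu killer in green, 40 at 1 mm and 44 at 2 mm. Of all 385 probes negative on every array 300 (77.9%) did, against 49.3% of the 28295 probes. The 385 were chosen by the sign of these same ratios, so the shares are not a like comparison. Members with the most negative scanner ratios ran both ways. TC313692 had a mean ratio of -4.64 with Mu killer in red and -6.46 in green, while T18258 had -2.58 in red and -1.21 in green. Arrays 3 and 4 of each stage are also other replicates than arrays 1 and 2, so that dye and replicate cannot be told apart.

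A second probe exists for 5 of the 60 identifiers, and it gives a measurement that the rule did not use. For TC313692 the second probe, A_92_P014505, had signals of 15.4, 53.4, 171 and 209 in Mu killer at 1 mm, against 5890, 4503, 7820 and 11460 in Mu active. The 2 mm samples gave 102, 205, 108 and 171 in Mu killer, against 11020, 8235, 10410 and 6861 in Mu active. It was well above background in every Mu active sample and in 7 of 8 Mu killer samples, all but that of 1 mm array 1. Both probes thus separated the lines on all 8 arrays. The second had a mean ratio of -5.90 ± 0.45 at 1 mm over the 3 arrays that measured it in both lines (SD, n = 3) and of -6.00 ± 0.78 at 2 mm (SD, n = 4).

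For the other 4 identifiers the second probe did not repeat the member's pattern on every array. For TC313913 the second probe, A_92_P020853, was negative on 6 of 8 arrays with a mean ratio of -0.84, against -0.97 for the member. After normexp and loess the second probe had fitted ratios of -0.22 at 1 mm and -0.09 at 2 mm, against -0.62 and -0.64 for the member. For TC314797 the second probe, A_92_P004185, was negative on 2 of 8 with a mean of 0.25, against -1.03 for the member, which had the smallest spread of all 60. The member probe of TC314797 had 15060, 18500, 22910 and 12790 in Mu killer at 1 mm, against 32450, 38330, 35070 and 26510 in Mu active. At 2 mm the same probe had 18320, 17190, 21320 and 9599 in Mu killer, against 45870, 41070, 42030 and 17180 in Mu active. The lines were separate at 1 mm, and at 2 mm array 4 was dim in both lines and brought them to overlap.

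The second probe of TC314797 had 443, 331, 269 and 484 in Mu killer at 1 mm, against 291, 228, 285 and 368 in Mu active. Later, at 2 mm, the signal was 277, 300.1, 499 and 472 in Mu killer, against 194, 282, 645 and 385 in Mu active. The lines overlapped at both stages. For MAGI4_59956 the second probe, A_92_P016019, was negative on 3 of 8 arrays with a mean of 0.53, against -1.24 for the member. For DR810778 the second probe, A_92_P013099, was well above background in only 2 of 16 samples, and its ratio was listed at 0 on 6 arrays. Whether the probes of an identifier hybridize to the same transcript is not given in the sources used here.

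**Figure D5:**
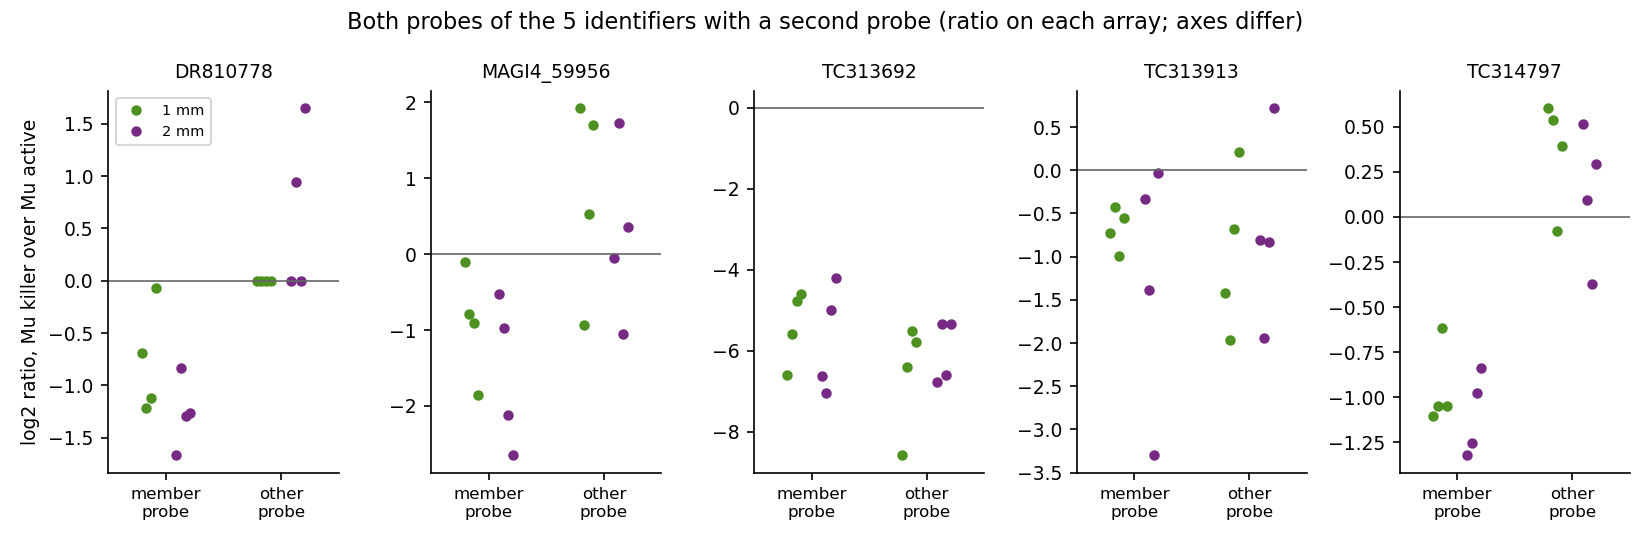
Ratio on the log2 scale, Mu killer over Mu active (vertical axis, scaled per panel) on each array for the member probe and for the other probe of the same identifier, green for 1 mm and purple for 2 mm. Both probes of TC313692 lie below -4 on all 8 arrays, whereas the other probe of TC314797 lies above 0 on 6.

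The MuDR probes, whose element Mu killer targets, were well above background throughout but did not join the members. Mu killer itself holds part of MuDR, and which transcripts these probes detect is not given in the sources used here. Their values therefore do not show whether MuDR was silenced. MUDRB averaged -0.59 ± 0.49 at 1 mm, where it was negative on 4 of 4 arrays, and 0.19 ± 0.41 at 2 mm (SD, n = 4 each), where it was negative on 2. MUDRA-21 averaged -0.32 ± 0.55 at 1 mm and 0.44 ± 0.52 at 2 mm, and MUDRA 0.07 ± 0.42 and 0.37 ± 0.45 (SD, n = 4 each). Neither had a negative mean at 2 mm. MUDR-TIRA, named for the terminal inverted repeat next to mudrA, averaged -0.61 ± 0.92 at 1 mm and -1.02 ± 0.58 at 2 mm (SD, n = 4 each). At 1 mm it had 983, 2074, 1058 and 1448 in Mu killer, against 1633, 1867, 3839 and 1446 in Mu active, and Mu killer was lower on only 2 of the 4 arrays. At 2 mm MUDR-TIRA had 3900, 4485, 5365 and 3252 in Mu killer, against 5185, 14210, 8584 and 8167 in Mu active. Mu killer was lower on all 4 of these arrays, with the top Mu killer sample just above the lowest Mu active sample.

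As a further description, 60 probes were chosen on the arrays of a single stage and read on the other, after the background filter over all 8 arrays. Of the 60 chosen at 1 mm, 11 (18.3%) were negative on all 4 arrays at 2 mm, against 11% of the 28295 probes, and 56 (93.3%) had a negative mean, against 50.6%. Their median ratio was -1.46 at 1 mm, where they were chosen, and -1.02 at 2 mm. Of the 60 chosen at 2 mm, 8 (13.3%) were negative on all 4 arrays at 1 mm, against 6.41%, and 57 (95%) had a negative mean, against 47.6%. Their median ratio was -2.13 at 2 mm and -0.71 at 1 mm. Of the members, 11 were among the first choice and 8 among the second. Dyes and array numbers are arranged alike on both slides, and whether the same plants gave both stages is not given in the sources used here. The other stage is therefore not an independent reading, and these shares cannot show that the pattern was replicated.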

How the data were processed

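RNA of 16 anther samples was hybridized to 8 Agilent maize arrays of 2 colors. The authors deposited the scanner output, with the mean and local background intensities of each spot, processed signals after background subtraction and dye normalization, and the log10 ratio of red over green. Per the file headers it was made with Feature Extraction 9.5.3.1, which marks spots over 2.6 SD above background. The log10 ratios were rescaled to log2 and turned to Mu killer over Mu active. The members and the lists were chosen with earlier results of these data known. The deposited table of normalized intensities (limma is named in the submitters' processing notes) served as an alternative. Within each stage its columns followed the arrays in mirrored order, with correlations between 0.871 and 0.91, and its replicate order was not settled.

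The 1264 positive and 153 negative control spots did not enter any fit, and no spot was saturated. Stage tests used limma 3.58.1 (R 4.3.3) after normexp (offset 50) and loess within arrays. The ratio fit had a coefficient per stage and a dye term. The level fit (Aquantile, intraspot correlation 0.321) left out 55 probes with a spot marked as an outlier. P-values were adjusted by Benjamini-Hochberg over all probes and measure the spread between biological replicates, 4 per group. The number of arrays limits the precision. The fits were also run on simulated data of 42034 probes. The simulated noise was independent, without slide or array effects, and no result given here rests on that run. Other steps used Python 3.11.15, numpy 2.4.6 and pandas 2.3.3. Values in every sample are given for the 12 most negative members, the 4 with the largest moderated stage difference, members past the threshold in both lines and second probes of member identifiers, with TC314797 and its second probe chosen after their values were seen. Lists of anther, photosynthesis, silencing and anthocyanin genes could not be matched to probes by symbol and give no value. Alternatives covered background correction, normalization, the deposited table, the filter, the ranking, the dye term, the block, the offset and leaving out each array.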

Additional observations from a re-analysis of the deposited data

Results flagged for a closer look

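Among 72 groups of 4 samples for the 18 members with values in every sample, a sample lay far from the other 3 of its group in 3 groups. Chance flags about 1 in 20 groups. In Mu killer at 2 mm, the signal of AW017929 was 70.7 on array 4, and the gap to the nearest sample was 0.898 of the range of the group on the log2 scale. In Mu killer at 2 mm, TC301778 had 387 on array 3, with a gap of 0.913 of the range. In Mu active at 2 mm, TC288377 had 129 on array 2, with a gap of 0.91 of the range.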

How the results depend on the processing

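The members' median log2 ratio of -0.85 at 1 mm and -1.33 at 2 mm kept its value under median centering and without outlier spots, shrank to -0.55 and -0.61 with normexp and loess and to -0.43 and -0.53 in the deposited table, and turned to 0.85 and 1.33 with the lines read from the Cy5 labels. Leaving out 1 array gave -0.95 to -0.83 at 1 mm and -1.41 to -1.19 at 2 mm. The choice of members was less stable. Of the 60, 29 were chosen again with normexp and loess, 30 with no filter on dim probes, 11 on the 1 mm arrays alone and 8 on the 2 mm arrays alone, and between 15 and 51 with 1 array left out, the fewest without 1 mm array 1, when 1589 probes were negative throughout in place of 385, and 26 without 2 mm array 3. No alternative called a member for a stage difference in the ratio. Of the level changes, 3 in Mu killer became 13 with the processed signals, 9 with offset 0 and 8 with adjustment over the 28295 probes. Over all probes tested, the calls were 4443 in the main fit and 4172, 4865 and 5172 in these fits. In Mu active 8 became 2 with the processed signals and 3 with offset 0. Over all probes 2872 became 1621 and 2304. The cause was not tested. Leaving out 1 array gave between 0 and 7 in Mu killer (0 without 1 mm array 1, 7 without 2 mm array 3). Those 2 fits called 1812 and 6518 of all probes. In Mu active it gave between 1 and 12 (1 without 1 mm array 2, 12 without 2 mm array 4). Those 2 called 1327 and 3148 of all probes. Without 2 mm array 3 a call in Mu active was higher at 2 mm. Replicate numbers were not used to pair the samples in the main fits. Same-numbered arrays of the 2 stages had correlations of the ratio deviations between -0.289 and 0.337, and the other pairs between -0.386 and 0.369. With 4 arrays per stage these values cannot show whether the samples were paired. With a replicate block there were 0 calls in the ratio, 6 in Mu killer and 10 in Mu active, beside 0, 4971 and 3204 over all probes.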
